A study of Arabidopsis thaliana with 24 samples.

Results

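The 6 libraries described here compare Arabidopsis thaliana mutant for MSI2 and MSI3 with wild type at 20 days. They were chosen by genotype and age from 24 RNA-seq libraries and comprise 3 of msi2 msi3 (labelled homozygous for both mutations) and 3 of wild type Col-0. All came from material labelled as seedlings, kept 20 days at 22°C in days of 16 h light and nights of 8 h, with no treatment named in the labels. A further 3 libraries of the same age, labelled hag2 msi2 msi3, entered the same fit and are used only to show where msi2 msi3 stood apart from them. The labels do not say which alleles were used, whether replicates came from separate plants, how many plants were pooled or at what hour they were harvested, so p-values measure the spread between these libraries. The question put to the comparison, from the title of the study, concerned the histone chaperone side of the NuB4 complex. The comparison bears on its subunits MSI2 and MSI3 only, since NASP, its H3-H4 chaperone, is not mutated in msi2 msi3 by label.

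NuB4 is a complex of the histone acetyltransferase HAG2, the WD40-repeat proteins MSI2 and MSI3, and the H3-H4 chaperone NASP. The related yeast complex, built on Hat1, Hat2 and Hif1, acetylates newly made histone H4 and hands H3-H4 on for deposition on DNA. WD40 proteins of the MSI type bind histones and sit in several chromatin complexes, and MSI1, FVE and NFC5 are their closest relatives in Arabidopsis.

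Levels are the authors' normalised values and the depth behind them is unknown. In units of 1e6 they summed to 47.2 to 47.5 in the wild type libraries and to 45.73 to 46.6 in those of msi2 msi3, ranges that did not overlap. On the first principal component, which held 38.0% of the variance over 20254 genes, wild type lay between -44.7 and -38.8 and msi2 msi3 between 22.5 and 27.9. Of 23707 genes tested with limma on log2(value + 1), 1802 (7.6%) were called, meaning a p under 0.05 after Benjamini-Hochberg adjustment, of which 819 rose (3.45%) and 983 fell (4.15%). The counts given below for lists of genes are to be read beside these shares. The libraries of the 2 groups did not overlap for 1793 of the 1802 called genes. The same held for 27.5% of all genes tested, so lack of overlap adds little to a call. Fold changes on this scale understate the change of low genes. Changes upward were larger: the risen genes had a median log2 fold change of 0.75 and the fallen genes of -0.44, against 0.01 over all genes tested. At least 2-fold changes were 346 upward (1.46%) and 137 downward (0.578%). Of those 346 genes, 193 had a wild type mean under 10, including 61 listed at 0 in all 3 wild type libraries, and 36 had a wild type mean of 100 or more. The balance of directions turned with the scaling, to 1053 risen and 762 fallen with every library brought to the same total and to 984 and 754 with voom weights; both moved the median of all genes to 0.05. Without wild type replicate 1, 2 or 3 the count of called genes dropped to 1078, 1108 and 1188, and without msi2 msi3 replicate 2 or 3 to 1137 and 1193.

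**Figure D1:**
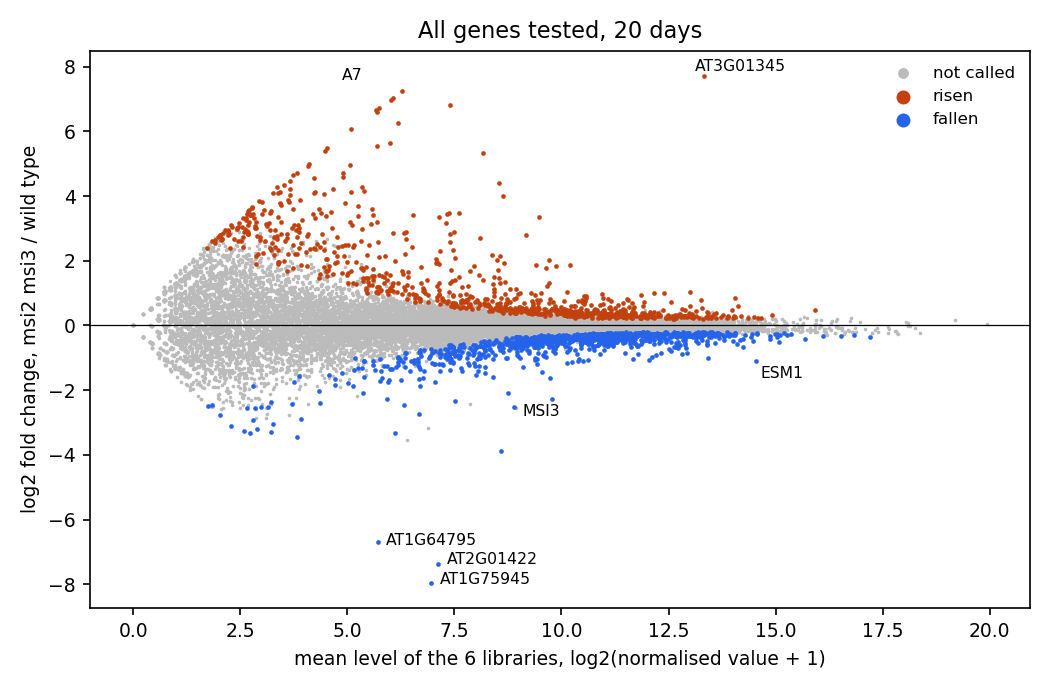
Log2 fold change of msi2 msi3 against wild type (vertical) against the mean of the 6 libraries as log2(normalised value + 1) (horizontal), 1 point per gene tested; orange points rose, blue points fell, grey points were not called. The 819 risen genes reach a log2 fold change of 7.71 at AT3G01345, while most of the 983 fallen genes lie above -1 and 3 named genes stand below -6.

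Both mutated genes were lowered, MSI3 much more than MSI2. MSI3 read 855, 791 and 768 in wild type and 109, 174 and 145 in msi2 msi3, or 17.7% of wild type (log2 fold change -2.51 ± 0.18 SE, adjusted p = 7.59e-07). MSI2 read 1656, 1652 and 1656 in wild type and 705, 736 and 852 in msi2 msi3, so that 46.2% of its level remained (-1.12 ± 0.08, adjusted p = 1.10e-06). The groups did not overlap for either gene. NASP (adjusted p = 0.146), HAG2 (adjusted p = 0.767) and the relatives MSI1, FVE and NFC5 were not called. MSI2 ends within bZIP23 on chromosome 2 and MSI3 within bZIP19 on chromosome 4, in each case on the opposite strand, and whether counting used strand is not given in the sources used here. Of the 5 measured neighbours on each side, 2 of 10 were called around MSI2 and 1 of 10 around MSI3. These were bZIP23, a factor of the zinc deficiency response (0.52 ± 0.14, adjusted p = 0.0377), the kinase gene AT2G16750 (-0.57 ± 0.14, adjusted p = 0.0259) and HIPP25 (-0.66 ± 0.17, adjusted p = 0.0327). None of the 3 calls held in every alternative: bZIP23 lost it with the replicate block and without any 1 of the 6 libraries, AT2G16750 without wild type replicate 2 or 3 or msi2 msi3 replicate 2 or 3, and HIPP25 without wild type replicate 1 or 3 or msi2 msi3 replicate 2 or 3. Within 1 Mb of MSI2, 29 of 319 genes were called (9.09%), and within 1 Mb of MSI3, 32 of 521 (6.14%). Over all genes tested the share was 7.6%.

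Flower genes were higher in msi2 msi3. Flowering in Arabidopsis is set off by integrators such as FT and SOC1, which turn on the meristem identity genes LFY, AP1 and FUL; MADS-box genes of the AP3, PI, AG and SEP kind then specify the floral organs. Of 19 integrator and identity genes tested, 10 rose and none fell, with a median log2 fold change of 0.68; all 10 kept the call under every alternative and without any 1 library. The organ identity genes led. SEP2, a SEPALLATA factor active in all floral whorls, read 106, 98.2 and 127 in wild type and 341, 366 and 347 in msi2 msi3 (1.67 ± 0.15, adjusted p = 8.38e-06). PI, which with AP3 specifies petals and stamens, read 128, 114 and 171 against 353, 426 and 428 (1.56 ± 0.16, adjusted p = 3.06e-05). AP3 itself read 121, 79.2 and 109 against 292, 306 and 264 (1.49 ± 0.19, adjusted p = 2.32e-04). No wild type library reached any msi2 msi3 library for these genes, which held for 13.7% of all genes tested. SEP3 rose by 1.297 ± 0.16 on the log2 scale, SEP1 by 1.32 ± 0.20 and AG, the carpel and stamen gene, by 1.403 ± 0.29 (adjusted p = 1.23e-04, 7.74e-04 and 0.00727). The meristem identity genes AP1 (0.97 ± 0.15, adjusted p = 8.51e-04) and FUL (0.68 ± 0.14, adjusted p = 0.00671) rose too, with SPL4 (0.68 ± 0.11, adjusted p = 0.00181) and SPL9 (0.51 ± 0.10, adjusted p = 0.00416), the latter pair being targets of miR156 in the change from juvenile to adult growth.

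The integrators upstream of these genes were not called. FT, the mobile signal made in leaves, read 8.69, 18.0 and 11.3 in wild type and 17.65, 20.6 and 10.6 in msi2 msi3 (0.35 ± 0.46, adjusted p = 0.726). SOC1 read 2431, 2528 and 2366 against 2434, 2909 and 2803 (0.15 ± 0.07, adjusted p = 0.268). LFY read 25.1, 60.4 and 49.1 against 79.9, 52.8 and 69.7 (0.65 ± 0.31, adjusted p = 0.253). The groups overlapped for all 3. Of 13 floral repressors, 3 fell and none rose, where 4.15% of all genes tested fell. The 10 not called were 5 higher and 5 lower, and log2 fold changes in the list ran from -0.713 to 0.729. Without msi2 msi3 replicate 1, 1 repressor was called as risen. SVP, a MADS-box repressor of FT and SOC1, read 4403, 4966 and 4452 against 3298, 3588 and 3686 (-0.39 ± 0.07, adjusted p = 0.00350). SNZ, an AP2-type repressor, read 826, 903 and 851 against 634, 442 and 526 (-0.70 ± 0.12, adjusted p = 0.00261). TEM2, a repressor of FT, read 1893, 1732 and 1660 against 1230, 1246 and 1245 (-0.50 ± 0.08, adjusted p = 0.00143). All 3 calls held in every alternative. FLC, the vernalisation gene, was low in all 6 libraries, at 9.69 to 18.9 in wild type and 4.798 to 10.3 in msi2 msi3 (adjusted p = 0.563).

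Genes of the anther were higher too. The tapetum is the nurse tissue that lines the anther and makes the pollen wall. Of 12 anther and pollen markers, 9 rose in every alternative tried and none fell (median log2 fold change 2.74). MS2, a fatty acyl reductase for sporopollenin, read 55.0, 20.6 and 28.3 in wild type and 556, 896 and 680 in msi2 msi3 (4.41 ± 0.28, adjusted p = 2.41e-07). ACOS5, the acyl-CoA synthetase of the same pathway, read 199, 122 and 121 against 1000, 1043 and 956 (2.80 ± 0.16, adjusted p = 9.66e-08). MS1, a PHD-finger regulator of the late tapetum, read 13.7, 3.31 and 4.63 against 87.3, 68.6 and 103 (3.60 ± 0.43, adjusted p = 1.06e-04). In each case the lowest mutant library was far above the highest wild type library. The sporopollenin enzymes CYP703A2 (3.48 ± 0.33, adjusted p = 1.08e-05), CYP704B1 (2.82 ± 0.34, adjusted p = 1.08e-04), LAP5 (2.69 ± 0.24, adjusted p = 5.88e-06) and LAP6 (1.32 ± 0.11, adjusted p = 3.32e-06) rose as well. So did the tapetum gene A9 (3.347 ± 0.36, adjusted p = 3.95e-05) and the regulator AMS (2.05 ± 0.25, adjusted p = 1.29e-04). The early regulators DYT1 (adjusted p = 0.376) and TDF1 (adjusted p = 0.205), near the lower limit of detection, and VGD1, a gene of mature pollen (adjusted p = 0.796), were not called.

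Some anther genes were listed at 0 in wild type. In all, 31 genes read 0 in all 3 wild type libraries and at least 5 in every msi2 msi3 library, and 22 of them also read at least 5 in every library labelled hag2 msi2 msi3. A7, a lipid transfer protein gene of the tapetum, read 124, 189 and 144 in msi2 msi3 (adjusted p = 1.76e-08). ATA27, a glycosyl hydrolase of the anther, read 157, 84.1 and 140 (adjusted p = 1.97e-08). LTP12, a tapetal lipid transfer protein, read 110, 86.2 and 120 (adjusted p = 3.03e-08). The set goes on with enzymes of spermidine conjugates, which are made in the tapetum. TSM1, a methyltransferase for these conjugates, read 115, 90.09 and 94.8 (adjusted p = 2.19e-08), and SHT, the spermidine hydroxycinnamoyl transferase, 44.7, 27.6 and 56.3 (adjusted p = 3.38e-06). The GH3-family gene AT5G13380 (149, 143 and 102), the purine permease gene PUP6 (57.3, 79.4 and 62.9), AT1G02813 (65.8, 147 and 90.9) and the lipase gene EXL6 (21.7, 12.0 and 8.64) were also at 0 in every wild type library. A7 lies close to another lipid transfer gene, AT4G28397, which read 36.3, 19.2 and 41.7 against 0, and how reads matching both were counted is not given. Of the 15 genes with the largest rise, 9 were at 0 in wild type, and all 15 kept the call in every alternative. The 15 were picked from called genes and the 31 by their values in these same libraries. The 31 passed the filter only through mutant libraries. The calls and p-values of both sets therefore follow from the selection and are no separate support.

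Organ makeup was described by lists of markers, and its part in the results that follow was not tested. In bulk RNA, more cells of a type and more RNA per cell cannot be told apart. Summed over the 12 anther and pollen markers, the same genes as described above, the level was 761 to 1125 in wild type and 4289 to 4908 in msi2 msi3. The label is seedlings, with no organ named. The root hair gene EXPA7 was listed at 0 in all 6 libraries. The 9 root markers together summed to 247.8 to 280.1 in wild type and 145.7 to 208.4 in msi2 msi3, most of it in every library from the nitrate transporter NRT2.1 (182 to 241 in wild type and 115 to 154 in msi2 msi3). Among them CASP1, of the Casparian strip, fell from 28.1, 14.98 and 6.05 to 0.00924, 1.89 and 0.965 (adjusted p = 0.00952, lost without wild type replicate 1), and NRT2.1 fell by 0.66 ± 0.17 on the log2 scale (adjusted p = 0.0283, lost without wild type replicate 2 or 3 or msi2 msi3 replicate 2 or 3). The 39 photosynthesis genes, which mark green tissue, summed to 6885736 to 6961965 in wild type and 6458896 to 6856107 in msi2 msi3.

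**Figure D2:**
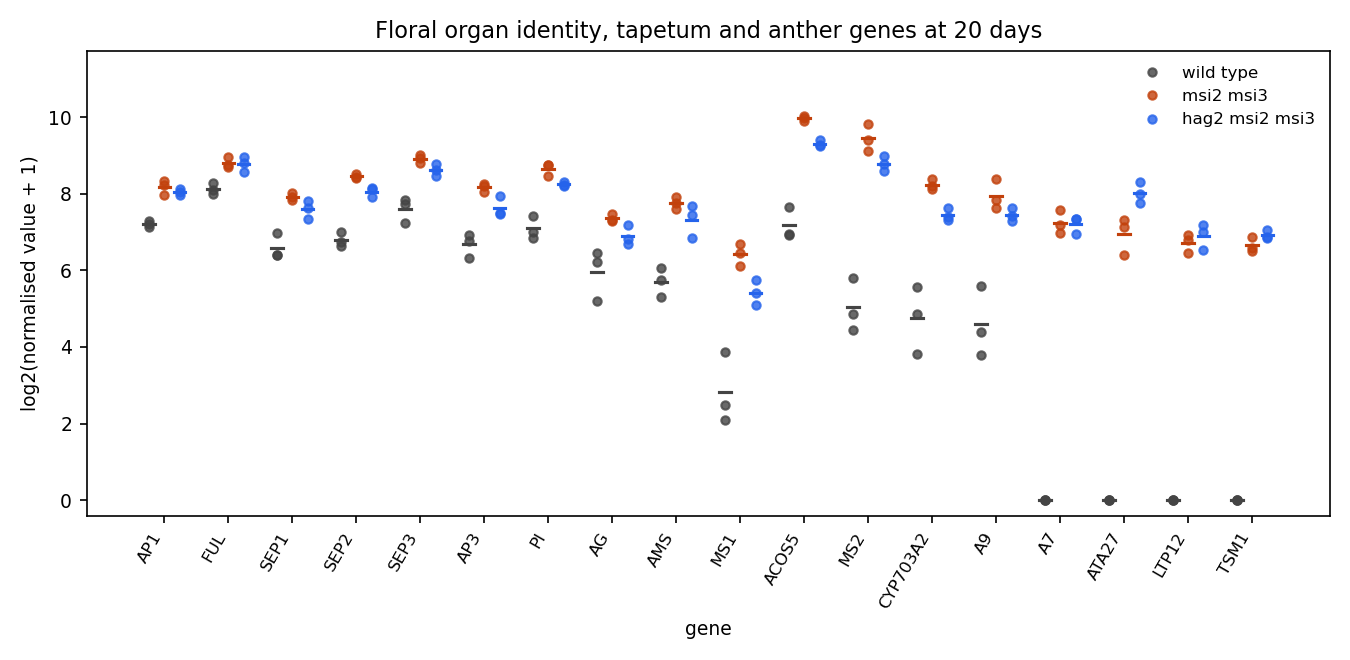
Level of each library as log2(normalised value + 1) (vertical) for 18 floral organ identity, tapetum and anther genes (horizontal) in wild type, msi2 msi3 and the libraries labelled hag2 msi2 msi3, with short bars at the mean of the 3 libraries. All msi2 msi3 points lie above all wild type points, and A7, ATA27, LTP12 and TSM1 are at 0 in every wild type library.

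Histone genes rose together in msi2 msi3. Core histones H3, H4, H2A and H2B form the nucleosome, H1 binds the linker DNA, and in Arabidopsis each is encoded by many genes of nearly the same sequence. Of 44 histone genes tested, 32 rose and none fell, with a median log2 fold change of 0.48; for 38 of them every msi2 msi3 library lay above every wild type library, which held for 13.7% of all genes tested. The call of 28 held in every alternative. Reads of near-identical copies may have been split or assigned to either copy, so the split among members is uncertain.

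AT5G10980, an H3.3 gene (replacement H3, made throughout the cell cycle), rose with little spread, from 5310, 5273 and 5412 to 10719, 10825 and 11282 (1.04 ± 0.06, adjusted p = 4.42e-08). A second H3.3 gene, AT4G40040, read 12252, 12495 and 11486 against 21429, 21674 and 22791 (0.86 ± 0.07, adjusted p = 3.32e-06), and the last, AT4G40030, changed less (0.37 ± 0.06, adjusted p = 0.00121). All 5 H3.1 genes, which encode the H3 deposited at replication, rose, from 0.50 ± 0.06 for AT5G65360 to 1.12 ± 0.14 for AT3G27360 (adjusted p = 8.27e-05 and 1.43e-04). The centromeric CENH3 was not called (0.43 ± 0.18, adjusted p = 0.163), nor was the low-expressed AT1G75600, at 0, 0.00529 and 1.09 in wild type and 5.21, 5.58 and 5.81 in msi2 msi3 (adjusted p = 0.0679). AT1G13370, read at 6.83 to 12.7 against 16.2 to 47.7, was called (1.85 ± 0.47, adjusted p = 0.0256), but not with voom weights, nor without wild type replicate 1 or 3 or msi2 msi3 replicate 1 or 2. Of the 8 H4 genes, 7 rose, all in every alternative (list median 0.83), between 0.62 ± 0.08 for AT5G59690 and 1.02 ± 0.08 for AT3G53730 (adjusted p = 1.25e-04 and 1.10e-06). AT3G53730 read a mean of 3002 in wild type and 5637, 6076 and 6545 in msi2 msi3. Only AT1G07660 was not called (0.30 ± 0.12, adjusted p = 0.170).

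Genes of H2A and H2B changed less. Of 13 H2A genes 7 rose, with a median of 0.41 over the list, led by HTA7 of the H2A.W type, which is found in heterochromatin (2145, 2204 and 1991 against 2968, 3555 and 3678; 0.68 ± 0.08, adjusted p = 1.23e-04); HTA3 alone of the 7 lost its call under some alternatives. The H2A.Z genes HTA8, HTA9 and HTA11, whose product marks promoters and responsive genes, were not called (adjusted p = 0.516, 0.755 and 0.118). Of 9 H2B genes tested 6 rose, with a median of 0.34, and 1 more did not pass the filter on low values; AT3G45980 lost its call without wild type replicate 2 or 3 or msi2 msi3 replicate 2 or 3, and AT3G46030 without msi2 msi3 replicate 3. The H2B gene AT3G53650 stood out from the list, at 260, 290 and 330 against 1073, 1079 and 1061 (1.87 ± 0.11, adjusted p = 1.26e-07). AT3G09480, also H2B, read 98.6, 112 and 78.9 against 226, 292 and 240 (1.39 ± 0.18, adjusted p = 2.59e-04). Across the rest of the H2B list no log2 fold change passed 0.47. All 3 H1 genes rose, the drought-induced HIS1-3 the most (475, 532 and 496 against 876, 851 and 890; 0.80 ± 0.14, adjusted p = 0.00239). None of 16 genes of other histone chaperones (median 0.05), none of 10 nuclear acetyltransferases (0.04) and none of 11 DNA replication genes (0.04) was called with limma; at an unadjusted p under 0.05 the counts were 2, 0 and 0, and voom weights gave 0 for each list. Without msi2 msi3 replicate 1, 1 of the chaperones was called. Among 10 mitosis genes CYCB2;1 fell, from 126 to 153 in wild type to 49.1 to 67.5 in msi2 msi3 (-1.23 ± 0.23, adjusted p = 0.00383), and the list's median was 0.05.

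**Figure D3:**
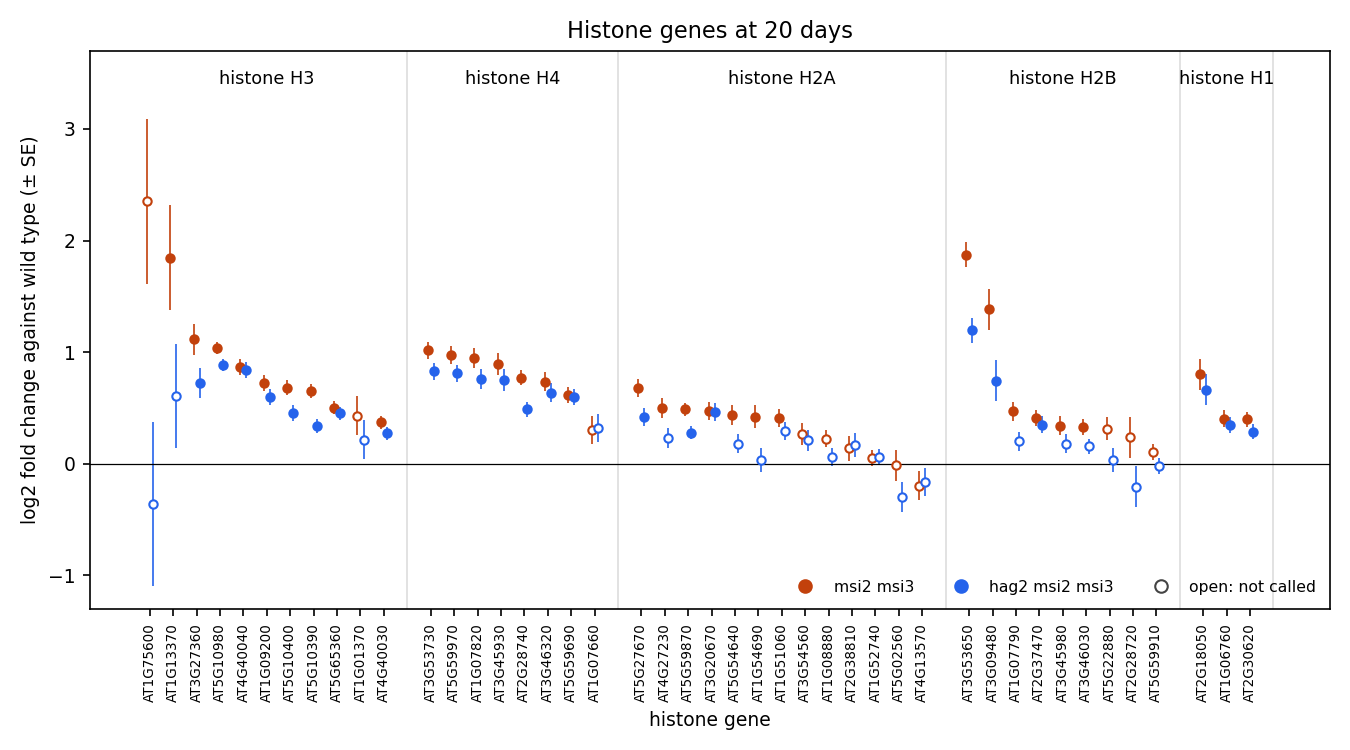
Log2 fold change against wild type with its standard error (vertical) for the 44 histone genes tested (horizontal, by class), in msi2 msi3 (orange) and in the libraries labelled hag2 msi2 msi3 (blue), which share the wild type libraries; filled points are called. All 11 H3 and 8 H4 genes lie above 0 in msi2 msi3, and the H2B gene AT3G53650 stands above its class at 1.87.

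Plant histone promoters often carry the octamer CGCGGATC, and it was sought in the 250 bases before each gene's start (TAIR10.1, both strands) because these genes moved together. It was found in 10 of 44 histone promoters (22.7%), against 34 of 23706 promoters of all genes tested (0.143%). Of the 32 histone genes that rose 9 carried it, and of the 12 not called 1 did, AT1G07660. The octamer was in none of the 9 H2B promoters, and its part in the rise was not tested. Shown are 4 promoters that hold it and that of AT5G10980, the H3.3 gene described above, which does not; capitals mark the octamer on either strand.
AT1G09200, H3.1 (chr1:2972335-2972584, minus strand): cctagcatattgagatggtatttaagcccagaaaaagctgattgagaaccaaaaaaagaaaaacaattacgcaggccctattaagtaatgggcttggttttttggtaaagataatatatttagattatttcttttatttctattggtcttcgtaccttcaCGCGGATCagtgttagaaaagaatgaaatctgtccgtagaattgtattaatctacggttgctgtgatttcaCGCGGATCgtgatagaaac
AT5G65360, H3.1 (chr5:26120582-26120831, minus strand): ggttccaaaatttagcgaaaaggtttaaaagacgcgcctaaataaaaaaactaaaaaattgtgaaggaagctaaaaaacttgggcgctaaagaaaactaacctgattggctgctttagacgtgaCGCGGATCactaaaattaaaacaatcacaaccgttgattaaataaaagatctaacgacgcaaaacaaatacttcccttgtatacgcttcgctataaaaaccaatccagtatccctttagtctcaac
AT4G40040, H3.3 (chr4:18558946-18559195, minus strand): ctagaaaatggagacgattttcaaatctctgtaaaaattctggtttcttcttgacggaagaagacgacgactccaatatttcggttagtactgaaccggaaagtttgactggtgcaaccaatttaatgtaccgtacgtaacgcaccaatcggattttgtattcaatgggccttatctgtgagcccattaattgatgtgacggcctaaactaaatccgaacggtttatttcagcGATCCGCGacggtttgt
AT5G59690, H4 (chr5:24051224-24051473, plus strand): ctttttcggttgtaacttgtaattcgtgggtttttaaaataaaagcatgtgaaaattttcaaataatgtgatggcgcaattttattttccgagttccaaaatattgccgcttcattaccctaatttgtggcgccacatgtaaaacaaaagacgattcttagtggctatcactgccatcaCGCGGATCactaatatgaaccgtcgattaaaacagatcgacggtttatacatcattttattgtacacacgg
AT5G10980, H3.3 (chr5:3473571-3473820, minus strand): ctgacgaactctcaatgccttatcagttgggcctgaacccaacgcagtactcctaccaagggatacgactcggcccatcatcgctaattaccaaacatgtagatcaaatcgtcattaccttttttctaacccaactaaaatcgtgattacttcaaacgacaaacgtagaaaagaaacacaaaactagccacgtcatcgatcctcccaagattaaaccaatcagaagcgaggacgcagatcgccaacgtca
The octamer stood at 90 and 19 bases before the start in AT1G09200, at 126 in AT5G65360, at 17 in AT4G40040 and at 71 in AT5G59690. AT3G53650, the H2B gene with the largest rise of its class, and AT3G53730, the H4 gene with the largest, had no match in this window.

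Among the few clock genes called, those of the morning fell and those of the evening rose. The plant clock runs on factors such as CCA1 and LHY at dawn and TOC1 and the evening complex at dusk, which repress each other. Of 11 morning genes 3 fell and none rose (median -0.23), and of 10 evening genes 4 rose and none fell (median 0.15). Of those not called, 4 morning genes were higher and 4 lower, and 4 evening genes were higher and 2 lower. With the same total per library, with voom weights or with 6 libraries only, 1 morning gene was called as risen. Since the hour of harvest is not given, a shift in time and a change in level cannot be told apart. CCA1 read 629, 729 and 737 in wild type and 372, 355 and 309 in msi2 msi3 (-1.02 ± 0.16, adjusted p = 0.00127). LNK1, a coactivator of the morning, read 2683, 2369 and 2782 against 1905, 1801 and 1752 (-0.52 ± 0.09, adjusted p = 0.00208). PRR9, a repressor of CCA1, read 215, 203 and 216 against 116, 106 and 104 (-0.95 ± 0.26, adjusted p = 0.0336). Groups were apart for all 3, but the call for PRR9 was lost without any 1 library and with no filter on low values. LHY, the partner of CCA1, was not called, at 74.3, 88.4 and 86.2 against 44.9, 60.4 and 91.2 (adjusted p = 0.456). BOA, a relative of the evening complex factor LUX, read 338, 359 and 276 against 523, 571 and 521 (0.74 ± 0.12, adjusted p = 0.00182). PRR5 (0.37 ± 0.06, adjusted p = 0.00201), the photoperiod receptor FKF1 (0.34 ± 0.06, adjusted p = 0.00276) and TOC1 (0.28 ± 0.05, adjusted p = 0.00505) rose by less, and all 4 calls held in every alternative. GI, ELF3, ELF4 and LUX, by contrast, were not called (adjusted p = 0.750, 0.726, 0.565 and 0.0831).

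The evening element AAAATATCT, to which CCA1 and LHY bind, was sought in the same window because the genes that rose are of the evening. It was in 5 of 10 evening promoters (50.0%) and 1 of 11 morning promoters (9.09%), against 572 of 23706 over all genes tested (2.41%). The 5 were those of BOA, FKF1, PRR5 and TOC1, which rose, and of LUX, which was not called. The lists were set by time of day and not by change in msi2 msi3, so these shares describe the lists. A part of the element in the rise was not tested. Capitals mark the element, which is on the opposite strand in both promoters shown, at 43 and 186 bases before the start.
BOA (chr5:24003638-24003887, plus strand): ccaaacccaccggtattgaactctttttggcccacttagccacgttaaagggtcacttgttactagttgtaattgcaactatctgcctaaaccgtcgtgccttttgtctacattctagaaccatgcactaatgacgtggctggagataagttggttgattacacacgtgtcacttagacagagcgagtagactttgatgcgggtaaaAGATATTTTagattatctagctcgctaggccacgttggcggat
FKF1 (chr1:25508389-25508638, plus strand): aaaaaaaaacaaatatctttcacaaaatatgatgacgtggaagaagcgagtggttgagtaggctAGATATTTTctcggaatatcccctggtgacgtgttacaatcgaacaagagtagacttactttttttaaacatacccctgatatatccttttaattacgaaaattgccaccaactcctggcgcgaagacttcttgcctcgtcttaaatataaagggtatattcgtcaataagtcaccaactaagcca

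Cold-regulated genes were lower. CBF factors bind the C-repeat, with the core CCGAC, in the promoters of COR and KIN genes, whose products protect cells from freezing. Of 11 genes of this list 9 fell and none rose, with a median log2 fold change of -0.99. KIN1 and KIN2 are near-identical neighbours whose reads may be shared. COR15B read 6845, 5031 and 5264 in wild type and 2348, 2897 and 2858 in msi2 msi3 (-1.07 ± 0.11, adjusted p = 2.03e-05). COR15A read 5836, 6433 and 5275 against 2667, 3028 and 3334 (-0.96 ± 0.09, adjusted p = 8.66e-06). KIN2 read 15006, 14858 and 13739 against 7633, 8140 and 6264 (-0.99 ± 0.12, adjusted p = 1.40e-04). The groups were apart for these 3, the members whose call held in every alternative. Without wild type replicate 1 only 3 of the list were called, without wild type replicate 2 or 3 or msi2 msi3 replicate 1 it was 5, and without msi2 msi3 replicate 2 it was 6 and without msi2 msi3 replicate 3 it was 4. The other 6 called members were COR78, COR47, GOLS3, KIN1, CBF2 and CBF3, and each lost its call without 2 or more single libraries. CBF2, a transcription factor of the response, read 133, 121 and 123 against 92.1, 43.4 and 49.2 (-1.10 ± 0.26, adjusted p = 0.0193), and CBF1 was not called (adjusted p = 0.166). Several COR genes are also clock-regulated. Within 250 bases of the start CCGAC was in 3 of 11 of these promoters (27.3%), those of COR15A, COR78 and GOLS3, and in 2950 of all 23706 (12.4%). A part of CCGAC in the fall was not tested. The COR15A promoter is shown for its 2 copies, in capitals, on opposite strands at 142 and 79 bases before the start.
COR15A (chr2:17712331-17712580, minus strand): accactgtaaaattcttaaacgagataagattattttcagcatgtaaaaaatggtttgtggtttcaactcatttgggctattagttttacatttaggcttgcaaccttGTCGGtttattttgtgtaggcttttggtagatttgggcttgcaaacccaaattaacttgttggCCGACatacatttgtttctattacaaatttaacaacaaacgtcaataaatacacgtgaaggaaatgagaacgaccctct

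Part of the glucosinolate genes fell and a few flavonoid genes rose. Glucosinolates are sulfur-containing defence compounds of the cabbage family, made from methionine in the aliphatic branch and from tryptophan in the indole branch. Of 20 synthesis genes 9 fell and 1 rose (median -0.30). BCAT4, the first enzyme of methionine chain elongation, read 8468, 9613 and 8150 in wild type and 5994, 6516 and 6651 in msi2 msi3 (-0.45 ± 0.07, adjusted p = 0.00110). CYP79F1, which converts the elongated methionine, read 8203, 8423 and 8689 against 6324, 6178 and 6047 (-0.45 ± 0.07, adjusted p = 0.00154). MYB51, a regulator of the indole branch, read 957, 878 and 909 against 555, 604 and 609 (-0.63 ± 0.09, adjusted p = 3.37e-04). No library of either group overlapped the other for these 3. The aliphatic regulator MYB29 (-0.45 ± 0.08, adjusted p = 0.00239) and the enzymes MAM1, MAM3 and SUR1 fell too (adjusted p = 0.00343, 0.00559 and 0.00389), and all 7 kept the call in every alternative. The member that rose was MYB34, another indole regulator (0.47 ± 0.10, adjusted p = 0.0114), whose call was lost without wild type replicate 3 or msi2 msi3 replicate 3. ESM1, which steers glucosinolate breakdown toward isothiocyanates, was among the 5 fallen genes of lowest adjusted p, at 33193, 32387 and 32918 against 14532, 15123 and 15950 (-1.11 ± 0.07, adjusted p = 1.15e-07). CYP71A13, an enzyme of the camalexin pathway, was among the 15 largest falls, at 57.2, 187 and 130 against 5.29, 12.1 and 16.5 (-3.32 ± 0.46, adjusted p = 4.02e-04). Of 13 flavonoid genes 4 rose and none fell. CHS, the entry enzyme, read 633, 763 and 796 against 1641, 1485 and 1382 (1.04 ± 0.10, adjusted p = 1.49e-05), and FLS1, flavonol synthase, 290, 332 and 307 against 543, 537 and 548 (0.81 ± 0.11, adjusted p = 2.25e-04). Both held in every alternative, whereas DFR lost its call without msi2 msi3 replicate 1 and MYB111 without any of 5 single libraries.

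Defence and rapid-response genes were mostly lower where they changed. Of 21 genes of salicylic acid and immunity 3 fell, each in every alternative, and none rose (median -0.23). Of the 18 not called, 12 were lower and 6 higher, 1 of them by 1.45 on the log2 scale. Without msi2 msi3 replicate 1, 1 gene of the list was called as risen. Over all genes tested 4.15% fell. CBP60G, an activator of salicylic acid synthesis, read 484, 385 and 429 in wild type and 122, 163 and 190 in msi2 msi3 (-1.46 ± 0.18, adjusted p = 1.16e-04). WRKY70, a regulator between salicylate and jasmonate, read 2714, 2417 and 2222 against 1228, 1485 and 1313 (-0.87 ± 0.09, adjusted p = 3.67e-05). PR5, a thaumatin-like defence protein, read 847, 921 and 927 against 407, 595 and 518 (-0.84 ± 0.12, adjusted p = 4.92e-04). The groups were apart for all 3. Among 18 jasmonate genes the synthesis enzymes LOX2 (-0.49 ± 0.09, adjusted p = 0.00405), AOS (-0.51 ± 0.08, adjusted p = 7.68e-04) and AOC2 (-0.63 ± 0.07, adjusted p = 4.08e-05) fell, while the storage protein gene VSP1 (0.82 ± 0.13, adjusted p = 0.00126) and the thionin gene THI2.1 (0.90 ± 0.23, adjusted p = 0.0300) rose; the call for THI2.1 was lost without wild type replicate 1 or 3 or msi2 msi3 replicate 2 or 3. Of 8 ethylene and jasmonate defence genes 3 fell, but wild type itself spread widely: the defensin gene PDF1.2c read 22.2, 1518 and 699 in wild type and 25.9, 17.63 and 14.5 in msi2 msi3 (adjusted p = 0.0367). That list had 6 calls without wild type replicate 1, none without wild type replicate 2 or 3 or msi2 msi3 replicate 1 or 2, and 1 without msi2 msi3 replicate 3, with voom weights or with no filter.

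Of 11 touch and wound genes 5 fell and 1 rose (median -0.61), counts that dropped to 2 fallen without wild type replicate 1 and to 3 without wild type replicate 3 or msi2 msi3 replicate 2. WRKY33, a factor of camalexin and pathogen response, read 1138, 988 and 1028 against 466, 673 and 486 (-0.97 ± 0.12, adjusted p = 1.96e-04). TCH4, a touch-induced xyloglucan enzyme, read 7724, 4987 and 5869 against 3665, 2610 and 3631 (-0.90 ± 0.14, adjusted p = 0.00127). Both held in every alternative and neither overlapped. TCH3, a calmodulin-like gene of the same response, was the one that rose (0.46 ± 0.12, adjusted p = 0.0323), a call lost without any 1 library except wild type replicate 1.

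Single genes of growth and nutrient lists were called as well. GLK1 (-0.50 ± 0.06, adjusted p = 1.14e-04) and GLK2 (-0.34 ± 0.07, adjusted p = 0.00549), which drive chloroplast development, fell, and PORA, a protochlorophyllide reductase, rose (0.60 ± 0.11, adjusted p = 0.00262). Of 38 photosynthesis genes 2 fell, LHCB2.2 and LHCB2.3 of the light-harvesting antenna, a share near the 4.15% of all genes tested that fell. The list's median was -0.13. The count was 5 with a filter on a mean of at least 10, 6 with voom weights and 1 without msi2 msi3 replicate 2. LHCB2.2 lost its call in the last. The auxin-response genes IAA29 (278, 302 and 310 against 114, 117 and 103; -1.41 ± 0.18, adjusted p = 2.43e-04) and IAA3 (-0.50 ± 0.08, adjusted p = 0.00164) fell, as did the cell wall expansin EXPA8 (-1.05 ± 0.10, adjusted p = 1.64e-05). Among 15 phosphate starvation genes 4 fell, of which MGD3, a galactolipid synthase, held in every alternative (138, 120 and 122 against 53.0, 57.0 and 34.7; -1.402 ± 0.26, adjusted p = 0.00352); the count was 2 at the same total per library, with voom weights, or without wild type replicate 1 or msi2 msi3 replicate 2, and 1 without wild type replicate 2. The iron store gene FER1 rose by 0.51 ± 0.07 and the phloem iron transporter gene OPT3 fell by 0.38 ± 0.06 on the log2 scale (adjusted p = 5.30e-04 and 0.00112). ASN1, the asparagine synthetase gene of dark and low sugar, read 6806, 7920 and 7056 against 12756, 12188 and 12480 (0.78 ± 0.07, adjusted p = 8.66e-06). MIOX2, an inositol oxygenase repressed by sugar, was among the 5 risen genes of lowest adjusted p, at 488, 516 and 515 against 1837, 1683 and 1992 (1.85 ± 0.09, adjusted p = 1.76e-08). GMI1, a gene of DNA repair, was the only 1 of 11 DNA damage genes called (306, 335 and 387 against 680, 571 and 560; 0.82 ± 0.12, adjusted p = 8.20e-04). Over all genes tested 7.6% were called.

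**Figure D4:**
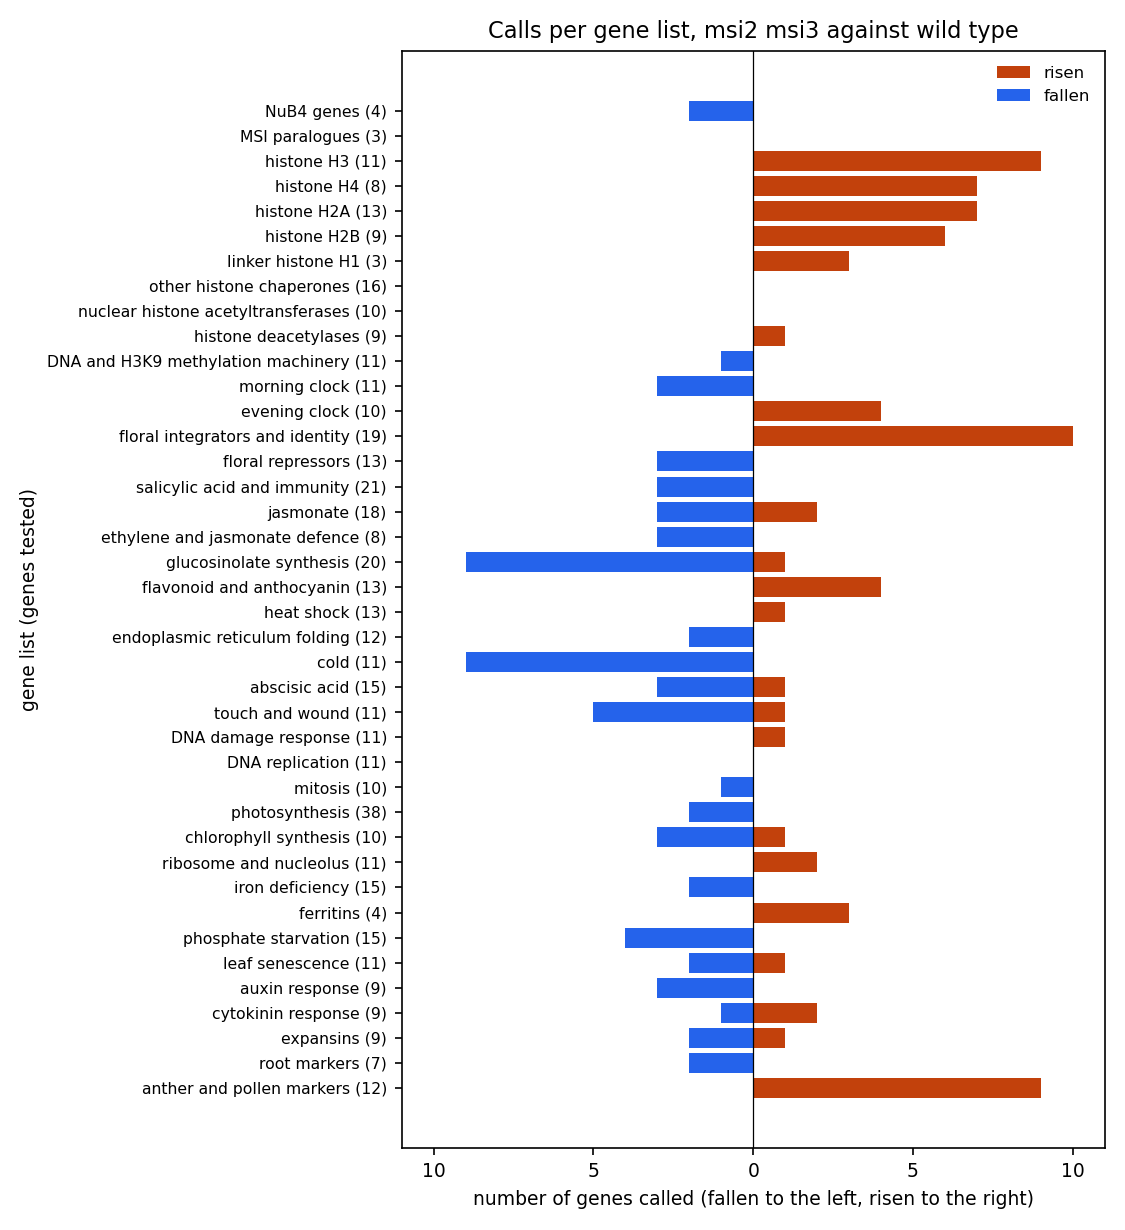
Number of genes called in each list (horizontal, risen to the right and fallen to the left; vertical, lists of 3 or more genes tested, with the number tested in parentheses) for msi2 msi3 against wild type. The 5 histone lists, the floral integrator and identity list and the anther list hold risen genes and no fallen ones, and the cold list holds 9 fallen genes of 11.

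A few single loci changed far more than any list. AT3G01345, an uncharacterised gene on chromosome 3 (129138 to 130749), read 24.7, 266 and 132 in wild type and 23333, 18446 and 19289 in msi2 msi3 (7.71 ± 0.54, adjusted p = 6.03e-07). AT5G15360, also uncharacterised, read 0, 2.101 and 1.13 against 149, 131 and 148 (6.26 ± 0.45, adjusted p = 8.43e-07). AT1G47980, a desiccation-like protein gene, read 17.55, 0.0939 and 0.166 against 269, 390 and 321 (6.82 ± 0.75, adjusted p = 4.94e-05). In the other direction 3 genes were at 5 or more in every wild type library and listed at 0 in every msi2 msi3 library. They were picked by these values, so their p-values are no separate support. AT1G75945 read 275, 259 and 206 before and 0 after (adjusted p = 1.76e-08), and AT1G64795 read 94.8, 100 and 113 (adjusted p = 1.16e-07). The last, AT3G11405, was low, at 8.93, 8.51 and 5.72, and its call (adjusted p = 0.0252) was lost without any 1 library. AT1G75945 lies on chromosome 1 (28515245 to 28515916, minus strand) just beyond ATA27 (28511142 to 28514284, plus strand). ATA27 went from 0 to present and AT1G75945 from present to 0, and a link between these changes was not tested. The non-coding RNA gene AT2G01422 read 161, 409 and 257 against 0.00924, 2.86 and 0 (-7.36 ± 0.66, adjusted p = 7.50e-06). Of the 15 largest falls, picked from called genes, 6 kept the call in every alternative. They were AT1G75945, AT1G64795, AT2G01422, CYP71A13, the receptor kinase gene CRK25 and AT2G13550. AT5G05060, a cystatin-like gene among the 5 fallen genes of lowest adjusted p, read 1517, 1535 and 1316 against 286, 287 and 326 (-2.28 ± 0.15, adjusted p = 4.02e-07).

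The libraries labelled hag2 msi2 msi3 are the nearest to msi2 msi3, at 14.8 to 18.3 on the first principal component. They did not carry the MSI2 loss their label names to the same extent: MSI2 read 1405, 1339 and 1333 there, a log2 difference from msi2 msi3 of 0.83 ± 0.08 (adjusted p = 1.22e-04), while MSI3 read 160, 118 and 126 (adjusted p = 0.915 for the difference). HAG2 was at 122, 132 and 164 in these libraries, a log2 difference of -2.895 ± 0.12 (adjusted p = 8.88e-09). Of 23707 genes, 281 differed between the 2 mutants (1.19%), 242 higher (1.02%) and 39 lower (0.165%) in the libraries labelled hag2 msi2 msi3. Against the wild type libraries that both mutants share, hag2 msi2 msi3 had 2.58% of genes risen and 1.71% fallen. There 9 of 12 anther and pollen markers rose (list median 2.08) and 8 of 19 floral integrator and identity genes (0.647). Of 11 cold genes 5 fell (-0.811). These changes were therefore not particular to msi2 msi3. Between the mutants 1 anther marker differed, and none of the floral or cold genes. The count of 281 became 177 with the 6 libraries of the mutants alone. It was 176, 114 and 136 without msi2 msi3 replicate 1, 2 or 3, and 104 without hag2 msi2 msi3 replicate 3. The split moved to 144 and 65 at the same total per library and to 142 and 91 with voom weights.

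Touch and wound genes were lower in msi2 msi3 than in these libraries. Of the 11 touch and wound genes 8 differed, all lower in msi2 msi3, where 1.19% of all genes tested differed. TCH4 read 9508, 11202 and 10356 in the libraries labelled hag2 msi2 msi3, above wild type, while in msi2 msi3 it lay below (difference 1.66, adjusted p = 2.95e-05). PHI-1, a gene of the same EXORDIUM family as EXO, read 1940, 1105 and 1557 in wild type, 962, 504 and 630 in msi2 msi3 and 2700, 4107 and 3263 in hag2 msi2 msi3 (difference 2.295, adjusted p = 9.83e-05). BT2, a sugar- and nitrate-responsive BTB protein, read 8675, 9090 and 8860, then 6407, 5573 and 6384, then 11836, 13500 and 12888 (difference 1.06, adjusted p = 1.94e-06). TCH4, PHI-1 and BT2 were on opposite sides of wild type in the 2 mutants. PHI-1 and BT2 are not in the touch and wound list. They were picked for their difference between the mutants after the values were seen, so they do not bear on how common this pattern is. PR5 (967 to 1075 in the libraries labelled hag2 msi2 msi3; difference 1.02, adjusted p = 5.85e-04), TEM2 (1985 to 2397; 0.80, adjusted p = 1.38e-04) and CBP60G (mean 346; adjusted p = 0.00569) also differed. AT1G75945 (60.2, 113 and 49.7) and AT1G64795 (25.8, 44.3 and 28.4) were present there between the levels of wild type and the 0 of msi2 msi3 (adjusted p = 8.70e-07 and 1.43e-05 for the difference). AT5G15360, at 15.3, 13.9 and 19.2, was also in between (adjusted p = 0.00329). AT3G01345 read 3936, 3115 and 3726 (adjusted p = 0.0353), a difference whose call was lost under 6 alternatives. These differences, other than that of AT3G01345, kept the call in every alternative. The histone lists differed in 2 of 44 genes, AT3G53650 and AT5G10390, both higher in msi2 msi3 (adjusted p = 0.00836 and 0.0267); the call for AT5G10390 was lost under 6 alternatives.

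**Figure D5:**
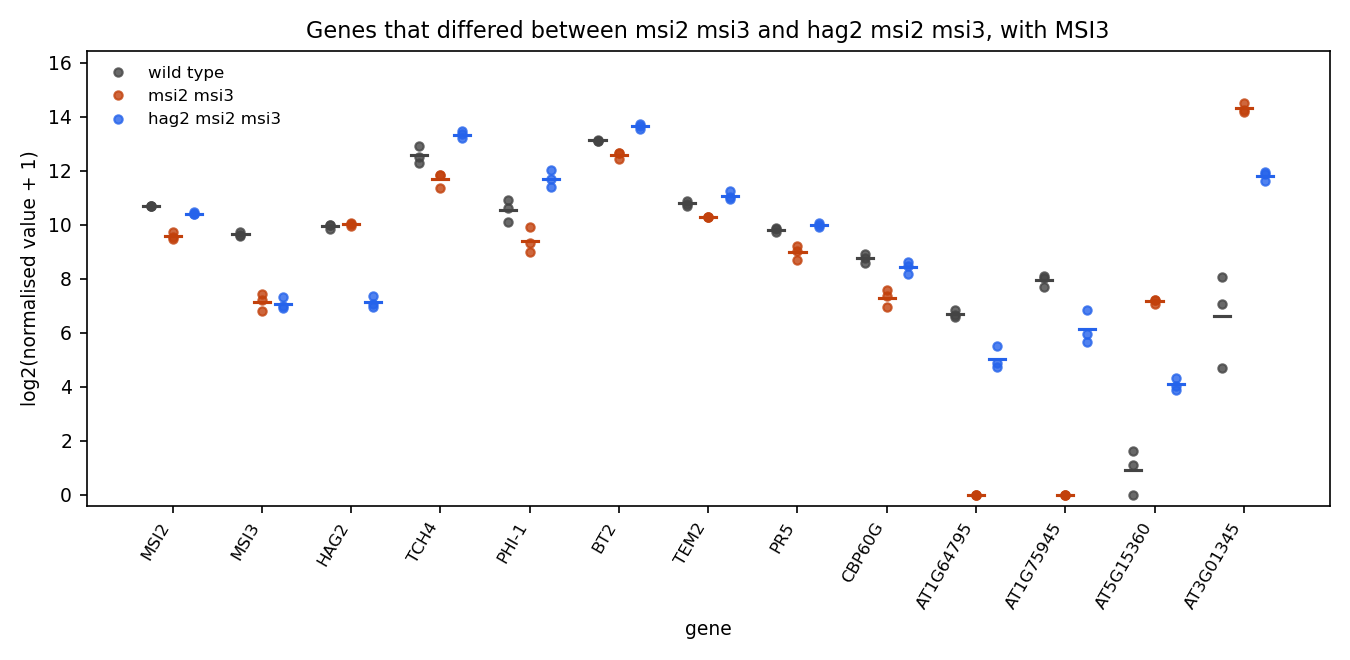
Level of each library as log2(normalised value + 1) (vertical) for 13 genes (horizontal) in wild type, msi2 msi3 and the libraries labelled hag2 msi2 msi3, with short bars at the mean of the 3 libraries. TCH4, PHI-1 and BT2 lie below wild type in msi2 msi3 and above it in the libraries labelled hag2 msi2 msi3, and AT1G64795 and AT1G75945 are at 0 in msi2 msi3 only.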

How the data were processed

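Total RNA of 20-day-old plants was sequenced in paired reads of 150 bases, per the labels' protocols. The submitters' processing notes name bcl2fastq, HISAT2, edgeR and TAIR10, with no versions or settings; strand use and the handling of multi-mapping reads are not given in the sources used here. For 20 days the authors deposited 1 table of signal values, normalised but not whole counts, for 32548 genes; how they were normalised is not stated, whole reads could not be recovered, and so no counting interval is given. Here values below 1e-12 were set to 0, and genes of at least 1 in at least 3 of the 9 libraries were tested on log2(value + 1) with limma 3.58.1 (lmFit and eBayes with trend, R 4.3.3) with 1 group per genotype and 3 libraries in each; adjusted p-values cover all 23707 genes. The fit was run on simulated data in which only well expressed genes were changed, so that run does not cover genes near 0 in wild type. All gene IDs matched RefSeq (TAIR10.1), which gave names, coordinates and promoter sequences. Named genes are the NuB4 genes and paralogues, the 15 largest changes each way (mean of at least 5, groups not overlapping), the 5 of lowest adjusted p each way, up to 6 genes a list and all histone genes, genes at 0 in 1 group, and 5 neighbours each side of MSI2 and MSI3; those whose call ended under an alternative are given as counts or with that stated. BT2 and PHI-1 were chosen after their values were seen, from the lowest adjusted p between the mutants. Members, lists and rules were chosen with earlier results of these data known. Alternatives were other pseudocounts and filters, equal totals, median centring, voom weights, a replicate block, 6 libraries, and leaving out each library.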

Additional observations from a re-analysis of the deposited data

How the results depend on the processing

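The number of genes called for msi2 msi3 against wild type stayed within 1.5 times of 1802 under every alternative except leaving out single libraries, where it ranged from 1078 to 1351 (risen 510 to 607, fallen 545 to 744). Under every alternative together, 755 of the 1802 calls were kept, 353 risen and 402 fallen. For hag2 msi2 msi3 against msi2 msi3 (281 called) the count was 177 with 6 libraries only and 104 to 324 without single libraries; those higher were 144 at the same total per library, 142 with voom weights, 143 with 6 libraries only and 89 to 265 without single libraries, and those lower were 65, 91 and, without single libraries, 12 to 59. The cause was not tested, beyond fewer libraries in the fit. Of 211 single genes called, 142 kept the call under every alternative and none turned direction. No pairing by replicate number was seen, as deviations of same-numbered libraries correlated at -0.02, 0.01 and -0.11. So few pairs cannot exclude it, and the labels do not say whether libraries were paired. With the replicate number as a block 791 genes rose and 918 fell. In groups of 3, 1 library can decide a call, and the unknown read depth limits what can be said of low values.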

Other observations

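The share of called genes over the 5 chromosomes ran from 7.27% of 6296 genes tested on chromosome 1 to 7.90% of 5471 on chromosome 5. By annotated kind, 1783 of 22503 protein-coding genes were called (7.92%) and 6 of 767 long non-coding RNA genes (0.782%), all 6 risen.

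Lists with few calls follow, to be read beside the 3.45% of all genes tested that rose and the 4.15% that fell. Of the genes named, CNX1, HSFA7A, FIB2, NCED3, ARR15, ARR16, WRKY53, PAO, EXPA3 and BTS lost the call under at least 1 alternative. Among 12 genes of folding in the endoplasmic reticulum none rose and 2 fell, CNX1 and SDF2, and the other 10 were lower without a call (median -0.24); the count was 4 in a fit of 6 libraries and 1 with no filter, at the same total per library, with voom weights or without any single library. Of 13 heat shock genes HSFA7A alone rose, and none without wild type replicate 1 or 2 or msi2 msi3 replicate 2 or 3. Of 11 genes of DNA and H3K9 methylation ROS1, a DNA demethylase, fell (-0.65 ± 0.16, adjusted p = 0.0199), a call lost without wild type replicate 1 or 3 or msi2 msi3 replicate 2 or 3. HDT1, a plant-specific deacetylase of the nucleolus, was the only 1 of 9 deacetylases called (0.32 ± 0.06, adjusted p = 0.00636), against 3 at the same total per library. Of 11 ribosome and nucleolus genes FIB1 and FIB2, which encode fibrillarin, rose; the count was 4 in a fit of 6 libraries and 1 without replicate 3 of either group. Among 15 abscisic acid genes P5CS1, RAB18 and NCED3 fell and HAI1 rose, and among 9 cytokinin genes ARR15 and ARR16 rose and ARR9 fell, with 1 risen gene without any single library. Of 4 ferritins 3 rose, 1 of them in every alternative, and the count was 1 without replicate 3 of either group. Of 15 iron deficiency genes 2 fell, OPT3 and BTS; the count was 1 with either other pseudocount, no filter, the same total per library, voom weights, or without any single library other than msi2 msi3 replicate 1. Of 11 senescence genes ASN1 rose, and WRKY53 and PAO fell; 2 rose with a pseudocount of 5 or without wild type replicate 1, and 1 fell without wild type replicate 1 or 2 or msi2 msi3 replicate 2 or 3. Among 9 expansins EXPA10 rose, and EXPA3 and EXPA8 fell; 2 rose at the same total per library, with voom weights or without wild type replicate 2, and 1 fell without replicate 2 of either group. Of 9 auxin-response genes 3 fell, and of 10 chlorophyll genes 3 fell and 1 rose. Of 3 genes listed beforehand as silenced in wild type only QQS passed the filter, and it was not called. The list summed to 327.6 to 433 in the wild type libraries, so as a whole it was not silent there. The risen count of this list was 1 without msi2 msi3 replicate 2.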
